A study of Mus musculus with 90 samples.

Results

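Imprinted genes are transcribed mainly or only from the copy inherited from 1 parent, a choice kept through cell division by DNA methylation at control regions near them. Many of them restrain growth, and in mice a set of them has been linked to the resting state of long-term blood stem cells. The 9 genes described here are Ndn, H19, Igf2, Dlk1, Meg3, Grb10, Gnas, Peg3 and Plagl1, found by symbol among the 35869 genes of the deposited table, in which all 9 had a row. The set was chosen by the Ndn values, as Ndn had been seen in wild-type cells that did not look like megakaryocytes and was at 0 in the knockout cells of the same kind. That contrast is therefore given as a description for Ndn and supports nothing. Other comparisons that use 1 of these groups share its values, and for Ndn they are descriptions too.

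The cells came from mice with Runx1 flanked by loxP sites on both alleles (RUNX1f/f). Runx1 encodes a transcription factor of blood development. Knockout (KO) mice carried the Mx1-Cre transgene (MxCre1+/-), which interferon or poly(I:C) switches on in blood cells and also in other tissues, and wild-type (WT) mice lacked it (MxCre1-/-). Both genotypes received 4 poly(I:C) injections, and stem cells carrying CD41 were sorted from bone marrow 4 weeks later and cultured for 2 days. Single cells with the look of megakaryocytes (MK), which shed platelets, and cells without it (NMK) were then picked, giving 5 KO MK, 6 WT MK, 13 KO NMK and 9 WT NMK libraries in the authors' table without outliers. The labels give neither the age of the mice nor the number of animals or cultures, so each group counts as 1 sample, no test between groups was run, and errors are SDs between cells.

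Values are TPM, a transcript abundance corrected for gene length and brought to 1 common sum, so the depth behind a value is unknown. Differences are in mean log2(TPM + 1) and understate the change of low genes. A gene was kept in a comparison if its mean reached 1 TPM in either group. It was called if the difference was at least 1 and larger than the pooled SD between cells. Over all kept genes the median difference was 0.09 for KO MK minus WT MK, 0.20 for KO NMK minus WT NMK, 0.70 for WT MK minus WT NMK and 0.59 for KO MK minus KO NMK.

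Several libraries stood apart. In KO NMK B1-1b 91.6% of the TPM lay on 13 mitochondrial genes, and KO NMK B1-2a held 3011 genes above 0. Their mean log2(TPM + 1) over 14 housekeeping genes was 4.60 and 2.54, against 8.86 or more in the other 31 libraries. Many results that use KO NMK cells are also given without them. Values given only once for KO NMK cells include both libraries. The 5 WT MK libraries whose titles carry no prefix correlated with each other at r = 0.972 to 0.981 across genes, above the highest value among KO MK libraries of 0.948. Whether they hold the same cDNA was not tested, and the WT MK spread may be understated. Megakaryocyte-platelet markers summed to 450.9 TPM in KO MK 2 and 555.3 TPM in KO MK B1-4, against 20728 to 56887 TPM in the remaining 3 and 13514 to 22093 TPM in WT MK cells. KO MK 2 and KO MK B1-4 thus lay in the range of WT NMK cells, 41.3 to 1514 TPM. Runx1 itself was not lower in the libraries labelled KO, with 22.5 ± 16.6 TPM (KO MK) against 12.4 ± 5.53 TPM (WT MK) and with 12.1 ± 14.8 TPM (KO NMK) against 5.08 ± 5.65 TPM (WT NMK). Gene-level values cannot show whether the floxed exons were lost, so KO and WT below name libraries by their labels.

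Transcripts that depend on sex divided the libraries along the same line as genotype, which was looked at after the data were seen. Xist, the RNA that silences 1 X chromosome in female cells, reached 1 TPM in 0 of 5 KO MK cells against 6 of 6 WT MK cells, and in 1 of 13 KO NMK cells against 8 of 9 WT NMK cells. At least 1 of the Y-linked genes Ddx3y, Eif2s3y, Uty and Kdm5d reached 1 TPM in 5 of 5 KO MK and 10 of 13 KO NMK cells, against 0 of 6 WT MK and 0 of 9 WT NMK cells. No cell had both. The single KO NMK cell with Xist, at 8.2 TPM, was B1-2a. Every KO against WT value below therefore also compares libraries with Y-linked transcripts with libraries that have Xist, and genotype and the sex of the animals cannot be told apart.

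Of the 9 genes, Ndn, Grb10 and Gnas were the ones kept in any comparison, and the other 6 were at or near 0. Gnas reached 1 TPM in all 33 cells, Ndn in 13 and Grb10 in 10. Meg3 and Plagl1 reached it in 1 cell each, and H19, Igf2, Dlk1 and Peg3 in none. The members thus fell into 1 gene present everywhere, 2 that varied from cell to cell and 6 with almost no signal.

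**Figure D1:**
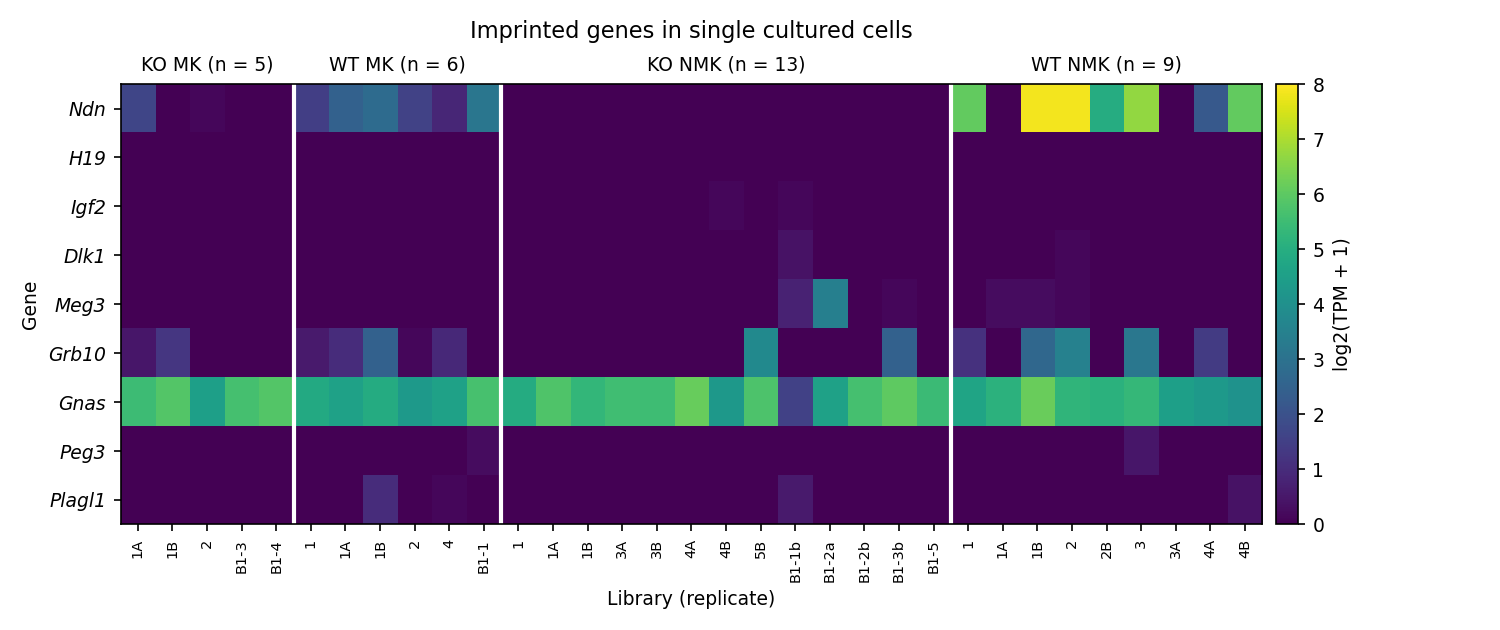
Heat map of the 9 imprinted genes (rows) in 33 single cells (columns, grouped as KO MK, WT MK, KO NMK and WT NMK), coloured by log2(TPM + 1). Gnas is coloured in every column, Ndn in 7 of 9 WT NMK columns, at high level in 6 of them, and in WT MK columns at low level, and the Ndn row is empty in all 13 KO NMK columns.

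Ndn encodes necdin, a growth-restraining protein of the MAGE family that is expressed from the paternal copy and has been linked in mice to quiescence of blood stem cells. It is a gene with 1 exon on the plus strand of chromosome 7 (chr7:62346569-62350262, GRCm38), and the predicted gene Gm32061 overlaps it on the opposite strand. All 13 KO NMK cells were listed at 0 TPM, and 0 of 13 cells allows a share of up to 23.1% of cells at 1 TPM. WT NMK cells had 66.5, 231.0, 104.0, 0, 231.7, 29.7, 0, 3.7 and 66.6 TPM in replicates 1, 2, 3, 1A, 1B, 2B, 3A, 4A and 4B. Ndn was thus high in 6 of these cells, low in 4A and listed at 0 in 1A and 3A, and the groups overlapped at 0 alone. The mean of KO NMK cells was 0 TPM and that of WT NMK cells 81.5 ± 92.1 TPM (SD, n = 9), and 7 of 9 WT NMK cells reached 1 TPM (77.8%, 95% Clopper-Pearson interval 40.0 to 97.2%, counting error only).

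On the log2 scale Ndn was 4.64 lower in KO NMK than in WT NMK cells (-4.64, pooled SD 1.98), the fourth lowest difference of 12835 genes kept. Without the 2 KO NMK libraries of low housekeeping signal it stood at -4.64 with a pooled SD of 2.08, and at -4.64 among the 8 KO NMK and 9 WT NMK cells without a title prefix. Every KO NMK value was 0 and both subsets kept the same 9 WT NMK cells, so the difference could not change. No WT NMK library with the prefix B1 was among those analysed here, so that prefix alone gives no value. In this contrast 1 of 3 kept members was called, lower in KO NMK, where 4.71% of all genes were called and 2.19% were called lower, and since the rule used the contrast nothing is read from this.

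In MK cells Ndn was present at low level in WT and mostly at 0 in KO. KO MK cells had 2.2, 0, 0.1, 0 and 0 TPM in replicates 1A, 1B, 2, B1-3 and B1-4. WT MK cells had 1.8, 2.0, 0.8, 4.6, 6.0 and 7.9 TPM in replicates 1, 2, 4, 1A, 1B and B1-1. The single positive KO MK cell lay within the WT MK range and the other 4 lay below it. The mean was 0.46 ± 0.97 TPM in KO MK cells (SD, n = 5) and 3.85 ± 2.78 TPM in WT MK cells (SD, n = 6). The limit of 1 TPM was met in 1 of 5 KO MK cells (20.0%, interval 0.505 to 71.6%) against 5 of 6 WT MK cells (83.3%, 35.9 to 99.6%).

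The difference for Ndn was -1.70 for KO MK minus WT MK, past the pooled SD of 0.83. It ranked 303rd from the lowest of 11796 genes. Here too 1 of 3 kept members was called, lower in KO MK, against 16.8% of all genes called and 7.07% called lower. The difference was -1.24 among the 3 KO MK and 5 WT MK cells without a prefix, -3.15 between the 2 KO MK cells and 1 WT MK cell with prefix B1, and -2.22 with the 5 similar WT MK libraries averaged to 1. In the full table, with the libraries the authors left out, it was -0.81 and no longer called. No member was called when the low Ndn levels were damped by a pseudocount of 10 or dropped by a minimum of 10 TPM.

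WT MK cells had less Ndn than WT NMK cells, and their ranges overlapped. The difference was -2.58, barely past its pooled SD of 2.51, and 1 of 3 kept members was called, lower in WT MK, against 28.9% of all genes called and 3.33% called lower. As the rule used the WT NMK values of Ndn, nothing is read from this call. The call was lost on leaving out any one of WT MK 1, 2 and 4 or WT NMK 1, 2, 3, 1B, 2B and 4B, with the 5 similar WT MK libraries averaged (-2.06), and after removal of mitochondrial and ribosomal protein genes (-2.60, SD 2.63). In the comparison of KO MK with KO NMK cells Ndn was not kept, and 0 of the 2 kept members were called, against 14% of all genes called, 0.614% lower and 13.3% higher. By its mean Ndn ranked 1598th of 18539 detected genes in WT NMK cells and 6862nd of 20434 in WT MK cells.

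**Figure D2:**
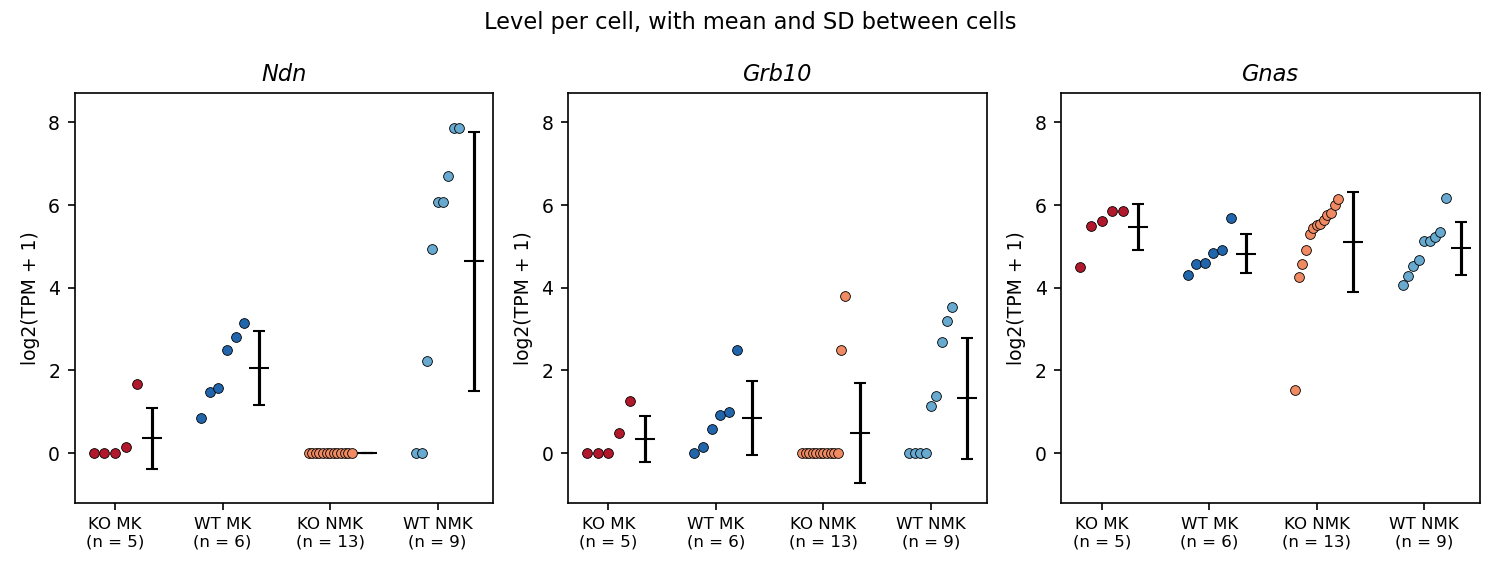
Level per cell of Ndn, Grb10 and Gnas as log2(TPM + 1) in KO MK, WT MK, KO NMK and WT NMK cells, 1 point per cell, with the mean and SD between cells as a bar beside the points. Ndn spreads from 0 to 231.7 TPM in WT NMK cells and lies at 0 in all KO NMK cells, while the Gnas groups overlap.

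Within WT NMK cells Ndn did not follow the cycling score, the mean log2(TPM + 1) of 22 cell cycle genes, in a single order. The 2 cells with the most Ndn, WT NMK 1B and 2, had cycling scores of 2.85 and 1.73. WT NMK 3, with 104.0 TPM of Ndn, had the highest score of 5.28, and 1A and 3A, at 0, had 4.60 and 4.80. WT NMK 4A, at 3.7 TPM, had 2.83. The median cycling score was 5.90 in KO NMK and 4.35 in WT NMK cells, and the part of cycling in the Ndn values was not tested.

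Over all 33 cells, the genes whose log2(TPM + 1) was most like that of Ndn were Tsix (r = 0.77), Xist (r = 0.76) and Tm4sf1 (r = 0.75), out of 7738 genes compared. Xist, like Ndn, was seen almost only in libraries with a WT label, as given above. Ndn was chosen by that split in NMK cells, so nothing is read from r over all 33 cells. Within the 9 WT NMK cells r was 0.51 for Tsix, 0.53 for Xist and 0.93 for Tm4sf1, which encodes a membrane protein of the L6 family. Tsix and Xist lie on opposite strands of 1 locus and the strand setting is not given in the sources used here, so how reads were split between them is uncertain. Tm4sf1 averaged 11.8, 10.4, 1.38 and 46.1 TPM in KO MK, WT MK, KO NMK and WT NMK cells.

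**Figure D3:**
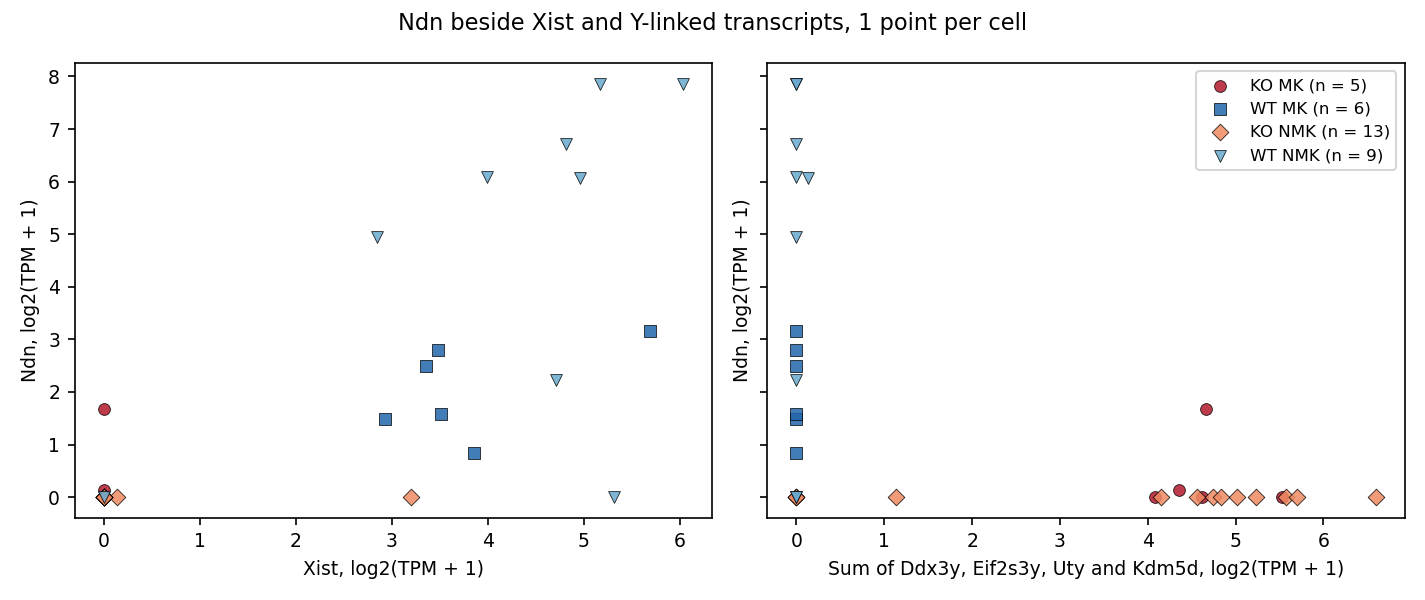
Ndn, as log2(TPM + 1) on the vertical axis, beside Xist (left) and the sum of 4 Y-linked genes (right) on the same log scale, 1 point per cell, with groups in different symbols. Cells with a Y-linked gene at 1 TPM or more all carry a KO label and have Ndn at 2.2 TPM or less, and the WT cell at the lower left of the Xist panel is WT NMK 1A, with neither Ndn nor Xist.

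Imprinted genes near Ndn were compared because they share its chromosome region, and they were chosen after the data were seen. Magel2, 0.0267 Mb away and like Ndn a MAGE gene, was listed at 0 in all 33 cells. Snurf and Snrpn, which overlap each other so that the split of reads is uncertain, reached 49.8 and 16.1 TPM in WT NMK 2B and 13.7 and 4.4 TPM in WT NMK 3, and no KO NMK cell passed 0.7 and 0.2 TPM. Both cells also had Ndn, but the other WT NMK cells with Ndn had Snurf at 1.1 TPM or less. The 2 cells with the most Ndn listed both genes at 0. Mkrn3, a ring finger gene 0.0673 Mb away, reached 3.6 TPM in KO MK B1-3, 1.1 to 2.9 TPM in 4 of 6 WT MK cells, 0.1 TPM at most in KO NMK cells and 6.6 TPM in WT NMK 4B.

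Peg12, a paternally expressed gene of the FRAT family 0.112 Mb from Ndn, was the neighbour of Ndn called for KO MK minus WT MK. KO MK cells had 0.1, 0, 0.1, 2.0 and 0.1 TPM in replicates 1A, 1B, 2, B1-3 and B1-4. WT MK cells had 8.8, 6.9, 5.0, 5.2, 17.5 and 4.3 TPM in replicates 1, 2, 4, 1A, 1B and B1-1. Among the libraries the authors left out, KO MK B1-1 had 3.9 TPM and WT MK B1-2 had 0, so the groups overlapped in the full table. In the table without outliers the difference was -2.62 with a pooled SD of 0.66 and was called, where 7.07% of all genes were called lower. It was -2.91 to -2.38 with each library left out in turn and -2.44 with the 5 similar WT MK libraries averaged. Peg12 and Ndn were thus both lower in KO MK than in WT MK cells. They parted in WT NMK cells, where Peg12 reached 1 TPM in 2B alone, at 37.5 TPM. For WT MK minus WT NMK the Peg12 difference was 2.31 (pooled SD 1.41), the opposite direction to Ndn. Ube3a, 3.04 Mb away, a ubiquitin ligase imprinted in neurons, averaged 7.58 ± 4.11, 6.70 ± 2.37, 2.99 ± 4.00 and 4.98 ± 5.52 TPM in KO MK, WT MK, KO NMK and WT NMK cells and was called only for KO MK minus KO NMK (1.57, pooled SD 1.24).

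**Figure D4:**
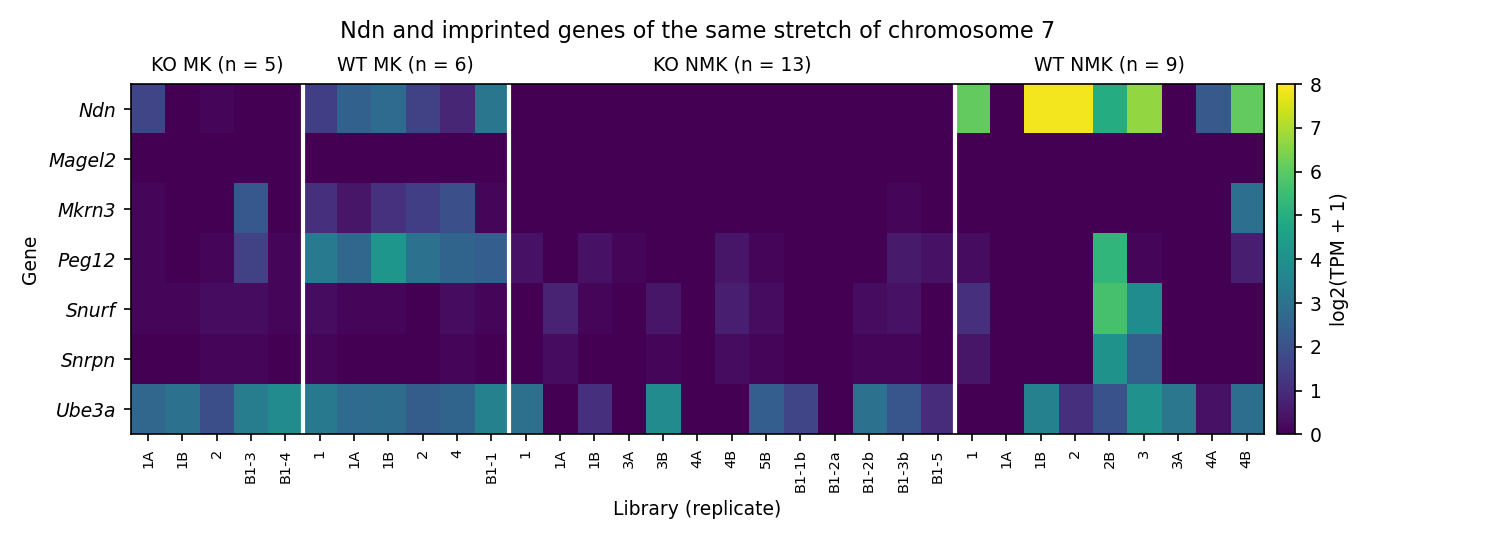
Heat map of Ndn and 6 imprinted genes of the same stretch of chromosome 7 in the 33 cells, coloured by log2(TPM + 1). Peg12 is coloured in all 6 WT MK columns, at 4.3 to 17.5 TPM, Snurf and Snrpn mainly in WT NMK 2B and 3, and Magel2 in none.

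Grb10, an adaptor protein that dampens insulin and IGF1 receptor signalling, was seen in a minority of cells outside WT NMK. It lies on the minus strand of chromosome 11 (chr11:11930508-12038683, GRCm38). KO MK cells had 0.4, 1.4, 0, 0 and 0 TPM and WT MK cells 0.5, 0.1, 0.9, 1.0, 4.6 and 0 TPM, in the replicate order used for Ndn. In KO NMK cells it was 13 TPM in 5B, 4.6 TPM in B1-3b and 0 in the other 11. WT NMK cells had 1.2, 10.5, 8.1, 0, 5.4, 0, 0, 1.6 and 0 TPM in replicates 1, 2, 3, 1A, 1B, 2B, 3A, 4A and 4B. All 5 WT NMK cells with Grb10 also had Ndn, which was present in 7 of all 9 WT NMK cells. Ndn was at 0 in every KO NMK cell, so nothing is read from its absence in the 2 KO NMK cells with Grb10.

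Grb10 averaged 0.36 ± 0.61 TPM in KO MK cells (SD, n = 5) and 1.18 ± 1.72 TPM in WT MK cells (SD, n = 6). NMK cells averaged 1.35 ± 3.72 TPM of Grb10 in KO (SD, n = 13) and 2.98 ± 4.02 TPM in WT (SD, n = 9). At least 1 TPM was reached in 2 of 13 KO NMK cells (15.4%, interval 1.92 to 45.4%). In WT NMK it was 5 of 9 cells (55.6%, 21.2 to 86.3%), and the intervals hold counting error only. The difference for KO NMK minus WT NMK was -0.84 against a pooled SD of 1.32 and was not called, and it was -0.75 without the 2 libraries of low housekeeping signal. Without KO NMK 5B it was -1.12 and called. The differences in the other comparisons, -0.51, -0.47 and -0.13, were smaller than their pooled SDs. Among the patterns most like that of Grb10 over 33 cells, out of 9056 genes compared, were those of Phyhd1 (r = 0.70) and Clvs1 (r = 0.66).

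Gnas encodes the stimulatory G protein subunit that couples receptors to cAMP production, and in a few tissues it is expressed mainly from the maternal copy. The gene spans chr2:174284320-174346744 on the plus strand (GRCm38), with 24 annotated transcripts from several promoters and the antisense gene Nespas, so the gene-level TPM mixes its imprinted and biallelic transcripts. KO MK cells had 44.1, 57.4, 21.7, 48.4 and 56.8 TPM and WT MK cells 27.9, 18.9, 22.9, 23.1, 29.4 and 50.2 TPM, in the replicate order used for Ndn. Gnas lay above 40 TPM in 4 of 5 KO MK cells and in 1 of 6 WT MK cells, B1-1, and the groups overlapped through KO MK 2 and WT MK B1-1. The means were 45.7 ± 14.5 TPM in KO MK (SD, n = 5) and 28.7 ± 11.2 TPM in WT MK cells (SD, n = 6), a difference of 0.65 that passed the pooled SD of 0.51 but not the size of 1. Between the 2 KO MK cells and 1 WT MK cell with prefix B1 it was 0.06.

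KO NMK cells had Gnas at 1.9 to 69.4 TPM with a median of 45.2 TPM, and WT NMK cells at 15.8 to 71.7 TPM with a median of 33.8 TPM. The lowest value was in KO NMK B1-1b. The difference was 0.16 for KO NMK minus WT NMK (pooled SD 1.02), and 0.53 without the 2 libraries of low housekeeping signal. WT MK minus WT NMK gave -0.13 and KO MK minus KO NMK 0.36, or -0.01 without those 2 libraries. Gnas was thus present in every group, with no difference called in the 4 comparisons. Its level was most like that of Gdi2, Lmo2 and Arpc2 over 33 cells (r = 0.79 for each), and r was 0.54, 0.53 and 0.43 in the 31 cells without the 2 libraries of low housekeeping signal. Of 12 microRNA genes of the member loci, Mir296, beside Gnas, reached 1 TPM in 13 cells, with a highest value of 17.2 TPM. Mir296 was 1.13 higher in KO MK than in WT MK cells and was called, where 9.74% of all genes were called higher. This call was lost without KO MK 1A (0.99). Whether the Mir296 reads come from the microRNA or from longer transcripts at the locus was not tested.

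**Figure D5:**
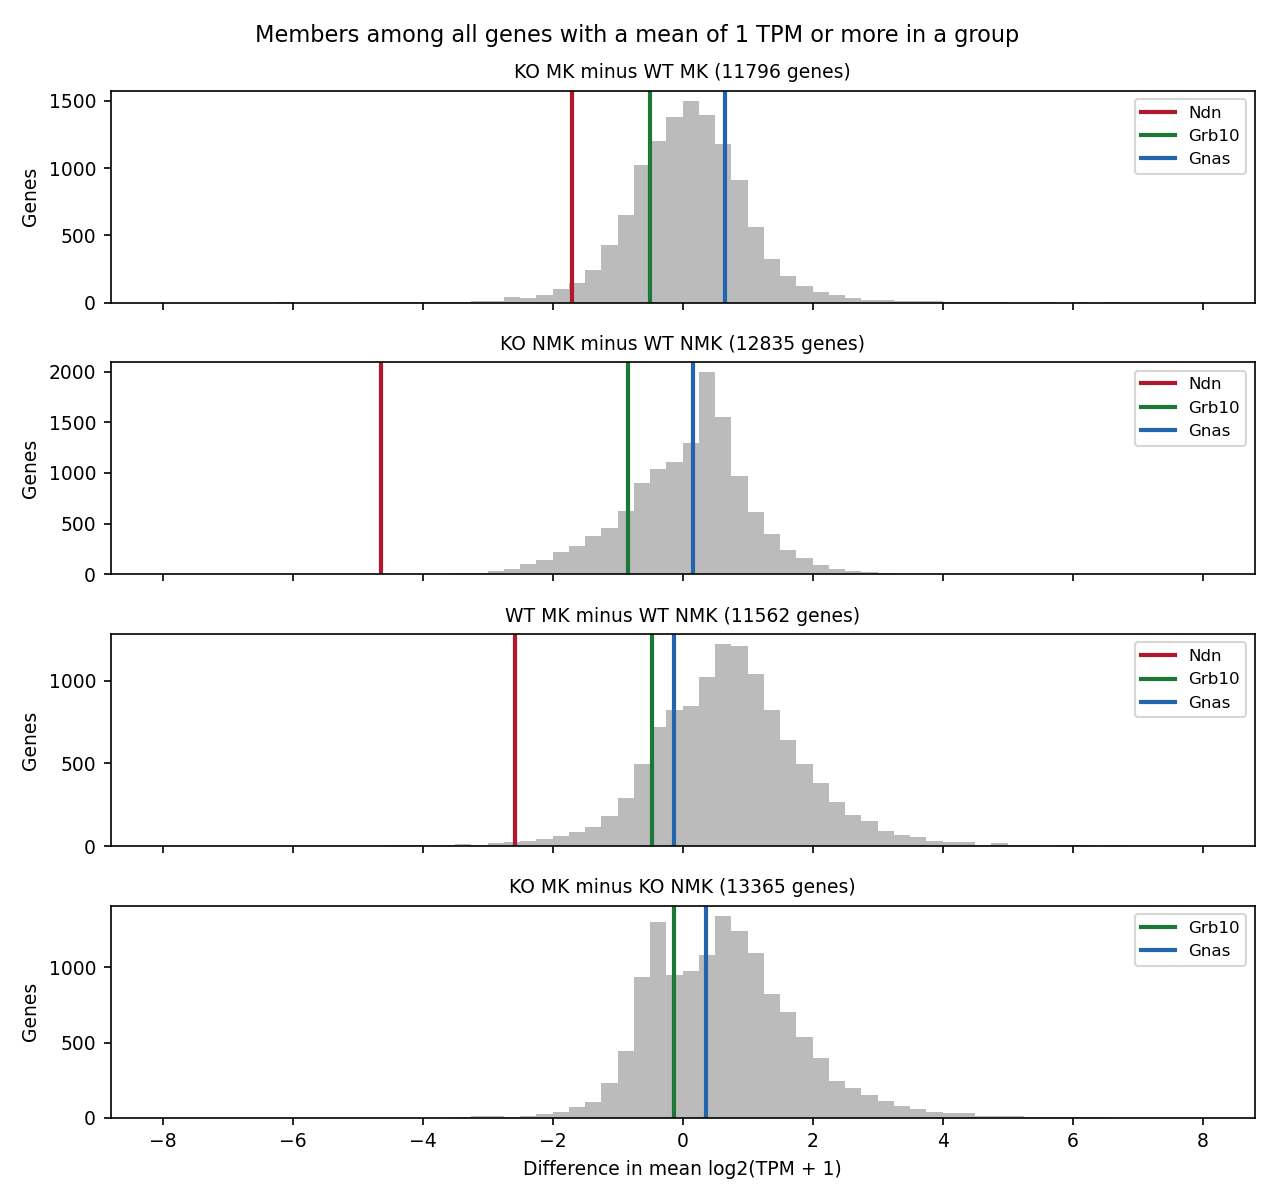
Histograms of the difference in mean log2(TPM + 1) over all kept genes in the 4 comparisons, with vertical lines for Ndn, Grb10 and Gnas. Ndn lies in the lower tail in 3 comparisons, at -1.70, -4.64 and -2.58, while Grb10 and Gnas lie within the bulk of genes, and Ndn was not kept in the fourth. The values -4.64 and -2.58 use the WT NMK cells by which Ndn was chosen.

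The paired loci of this family were almost silent. H19, a growth-restraining noncoding RNA (chr7:142575529-142578143), was listed at 0 in all 33 cells, and Igf2, the growth factor beside it (chr7:142650766-142666816), reached 0.1 TPM at most. On chromosome 12, Dlk1, a membrane protein of the Notch ligand type (chr12:109452823-109463336), reached 0.3 TPM at most. Meg3, the noncoding RNA of its maternal copy (chr12:109541001-109571726), reached 9.9 TPM in KO NMK B1-2a, a library of low housekeeping signal, and 0.7 TPM at most elsewhere. Without the 2 such libraries 0 of 11 KO NMK cells had 1 TPM of Meg3, which allows a share of up to 27.3%. The zinc finger genes Peg3 (chr7:6703892-6730431) and Plagl1 (chr10:13060504-13131694) reached 0.4 and 1.0 TPM at most, the second in WT MK 1B.

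The 250 bases upstream of the members' RefSeq starts were searched for TGTGGT, the core of the motif that RUNX proteins bind, or its reverse complement ACCACA. No other motif was searched. Of 9 members 8 had an entry in the RefSeq table, and 2 of their 16 windows held a match, 1 for Dlk1 and 1 for Meg3. The same letters were in 4614 of 32851 windows of that length (14.0%). Ndn had no match in its window. Both matches are shown with the motif in capitals because they are the only ones among the members, from RefSeq on the plus strand of GRCm38.p6, at chr12:109452668-109452697 for Dlk1 and chr12:109540759-109540788 for Meg3.
Dlk1: ccagactgtgacTGTGGTacctgcgagagg
Meg3: aaatcaccagcgACCACAgggtgttggtca
The Dlk1 match lies 143 bases before the start and the Meg3 match 225 bases before it. Dlk1 stayed at 0.3 TPM or less in KO and WT cells alike, as did Meg3 outside KO NMK B1-1b and B1-2a.

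Some imprinted genes beyond Igf2 on the same chromosome were detected, and these were also chosen after the data were seen. Phlda2, a growth-restraining gene of the placenta, was at 226.1 TPM in KO MK 2 and 89.5 TPM in KO MK B1-4, at 0 in the other 3 KO MK cells and at 0.2 TPM or less in all 6 WT MK cells. Those 2 KO MK cells are the ones with few megakaryocyte-platelet transcripts, and the part of this in the result was not tested. The difference of 2.80 (pooled SD 2.64) lost its call on leaving out KO MK 2 or B1-4 or WT MK 1, 2, 1A or 1B, and with the 5 similar WT MK libraries averaged (2.77). The mean of Phlda2 was 0.05 ± 0.08 TPM over WT MK and 20.8 ± 26.4 TPM over WT NMK cells, a difference of -2.76 (pooled SD 2.15). Cdkn1c, an imprinted cyclin-dependent kinase inhibitor linked to stem cell quiescence in mice, was at 20.1 TPM in KO NMK B1-2b and 10.6 TPM in WT NMK 3A, and at 1.0 TPM or less in the other 31 cells.

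A list of 47 other imprinted genes, 46 of them in the table, had calls in both directions for KO MK minus WT MK. In that comparison 20 were kept, with 2 called higher and 2 lower, where 9.74% and 7.07% of all genes were. The median difference was 0.45 against 0.09 over all genes. With each library left out in turn the counts were 1 to 4 in each direction. Peg13, a noncoding RNA within the Trappc9 gene, averaged 14.5 ± 5.98 TPM in KO MK and 3.48 ± 1.17 TPM in WT MK cells (difference 1.74, pooled SD 0.53). It lies on the same strand as Trappc9, so reads of the host gene cannot be kept apart. For KO NMK minus WT NMK 1 of 19 was called, higher, where 2.52% of all genes were. Without the 2 libraries of low housekeeping signal 2 of 18 were higher, where 10.2% of all genes were. With each library left out 1 to 2 were called. The gene called in all was Slc22a3, an organic cation transporter, at 67.9 ± 109 TPM in KO NMK and 0.23 ± 0.51 TPM in WT NMK cells (difference 2.95, pooled SD 2.66). Without the 2 libraries of low housekeeping signal Slc22a3 differed by 3.40.

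A list of genes around imprint maintenance had median differences of opposite sign in the MK and NMK comparisons. It also holds the methyltransferases Dnmt3a and Dnmt3b and the demethylation genes Tet1, Tet2 and Tet3. Its counts and medians thus mix maintenance with other roles. Of 14 listed, 10 were kept for KO MK minus WT MK, with 0 called higher and 2 lower (1 to 3 with each library left out), where 7.07% of all genes were called lower, and a median of -0.53 against 0.09 over all genes. For KO NMK minus WT NMK 9 were kept, with 3 called higher and 0 lower, where 2.52% of all genes were called higher, and a median of 1.02 against 0.20 over all genes. Without the 2 libraries of low housekeeping signal 5 were called higher with a median of 1.34, where 10.2% of all genes were called higher with a median of 0.36. Trim28, a corepressor that protects imprints, averaged 41.6 ± 19.8 TPM in KO MK and 101.8 ± 30.0 TPM in WT MK cells (difference -1.36, pooled SD 0.62). It averaged 138.0 ± 96.9 TPM in KO NMK and 48.2 ± 30.8 TPM in WT NMK cells (difference 1.40, pooled SD 1.05). Dnmt1, the maintenance DNA methyltransferase, was 1.32 higher in KO NMK than in WT NMK cells (pooled SD 1.16), a call lost without WT NMK 2, at a difference of 1.0. Whether the MK and NMK differences differ was not tested.

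Genes around the roles of the members were counted in the same way. Of 28 genes of insulin-like growth factor signalling, the pathway of Igf2 and Grb10, 16 were kept for KO MK minus WT MK and none was called, but 2 were called higher without KO MK 2 and 1 lower without KO MK B1-4. For KO NMK minus WT NMK 2 of 18 were called, both higher, where 2.52% of all genes were called higher. Without the 2 libraries of low housekeeping signal it was 2 of 14, where 10.2% of all genes were. One of the 2 among the 18 was the kinase Akt1, at 42.5 ± 36.7 TPM in KO NMK and 6.91 ± 7.38 TPM in WT NMK cells (difference 2.32, pooled SD 2.02). Without the 2 libraries Akt1 differed by 2.72. For WT MK minus WT NMK 4 of 15 kept were called higher and 1 lower, where 25.6% and 3.33% of all genes were. The gene called lower was Igfbp4, which binds insulin-like growth factors (-2.37, pooled SD 1.81). Igfbp4 differed by -1.59 and was not called with the 5 similar WT MK libraries averaged. Of 20 genes of Gs and cAMP signalling, the pathway of Gnas, 3 of 17 kept were called higher in KO MK than in WT MK cells, where 9.74% of all genes were called higher, and 5 without KO MK 2 or B1-3. Ptgir, the prostacyclin receptor that signals through Gs in platelets, averaged 42.7 ± 40.5 TPM in KO MK and 0.35 ± 0.48 TPM in WT MK cells (difference 4.29, pooled SD 1.41).

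Of 29 stem cell quiescence genes, 26 were kept for KO NMK minus WT NMK, with 1 called higher (0 to 2 with each library left out) and 1 lower and a median of 0.18, where 2.52% of all genes were called higher and 2.19% lower with a median of 0.20. Without the 2 libraries of low housekeeping signal 5 were higher and 1 lower with a median of 0.83, where 10.2% of all genes were called higher with a median of 0.36. The gene called lower was Pdzk1ip1, at 50.1 ± 40.5 TPM in KO NMK and 196.2 ± 95.5 TPM in WT NMK cells (difference -2.91, pooled SD 2.13). The gene called higher was Cdkn2c, at 62.5 ± 62.7 TPM in KO NMK and 12.9 ± 33.7 TPM in WT NMK cells (difference 3.07, pooled SD 2.88). The Cdkn2c call was lost on leaving out any 1 of 13 libraries. Without the 2 libraries of low housekeeping signal the differences were -2.09 for Pdzk1ip1 and 3.84 for Cdkn2c. For KO MK minus WT MK 3 of 24 were higher (3 to 5 with each library left out) and 1 lower (1 to 3), where 9.74% and 7.07% of all genes were. Mllt3, a stem cell maintenance gene, averaged 11.9 ± 3.13 TPM in KO MK and 2.88 ± 1.58 TPM in WT MK cells (difference 1.83, pooled SD 0.56). Of 22 cycling genes, all were kept for KO NMK minus WT NMK and 3 were called, all higher, where 2.52% of all genes were called higher. Without the 2 libraries 11 were higher, where 10.2% of all genes were. With single libraries left out the number ran from 1, without WT NMK 2 or 1B, to 8, without KO NMK B1-2a. Mki67, a marker of dividing cells, averaged 29.6 ± 20.6 TPM in KO NMK and 9.29 ± 16.5 TPM in WT NMK cells (difference 2.44, pooled SD 1.94). Without the 2 libraries of low housekeeping signal Mki67 differed by 3.06. For KO MK minus WT MK 2 of the 22 cycling genes were called higher (1 to 3 with each library left out) and 4 lower (2 to 5), where 9.74% and 7.07% of all genes were, with a median of -0.29 against 0.09. Mki67 averaged 5.0 ± 4.88 TPM in KO MK and 13.6 ± 8.25 TPM in WT MK cells (difference -1.44, pooled SD 0.86). Of 15 partners and targets of necdin, 14 were in the table and 12 kept, with 1 called higher in KO NMK than in WT NMK cells, E2f4, a transcription factor of cell cycle exit (2.54, pooled SD 2.23), where 2.52% of all genes were called higher. This call was lost without WT NMK 1A. Without the 2 libraries of low housekeeping signal E2f4 differed by 3.37 and 2 of 12 were higher, where 10.2% of all genes were. For KO MK minus WT MK none of the 12 was called, but 2 were called lower without KO MK 1B.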

How the data were processed

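Single-cell libraries were made with SMART-Seq kits, per the labels' protocols. The authors deposited TPM in a table of 46 libraries and in a table of 33 without outliers, which was used here. The 90 labels include 44 samples not analysed here, and 1 column matching no sample stayed unused. Per the submitters' processing notes, the tools were STAR 2.6.1e and featureCounts 1.6.2 with cutadapt 1.9.1 and FastQC 0.11.7, and the build was mm10. How outliers were chosen, which annotation and strand setting were used and how TPM was derived is not given in the sources used here.

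Groups came from the labels. With 1 as the pseudocount, differences in mean log2(TPM + 1) were set beside the pooled SD, and shares have Clopper-Pearson 95% intervals or a floor of 3 cells. The members, the gene lists and the limit of 6 on the housekeeping score were chosen with earlier results of these data known. All 9 members are named. From each list up to 4 called genes per comparison could be named, by size of difference and with a mean of at least 10 TPM, of which those in the text are a selection made after their values were seen. For likeness, the 3 genes of highest Pearson r were named, among genes with 1 TPM or more in at least 8 cells, or in at least as many cells as Ndn for Ndn, without predicted genes, pseudogenes, microRNA and ribosomal protein genes, and 1 of them is not reported here. Neighbours are imprinted genes within 5 Mb of a member. Positions are from GENCODE M21. A simulation in which 200 genes were shifted was used to test the calculation. Software was Python 3.11.15 with matplotlib 3.10.9, scipy 1.17.1, pandas 2.3.3 and numpy 2.4.6.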

Additional observations from a re-analysis of the deposited data

Results flagged for a closer look

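Within groups of 4 to 10 cells, 3 values stood far from the rest of their group by Dixon's criterion, among 10 combinations of gene and group tested. Its rate of 1 in 20 by chance holds for normally distributed values. In groups mostly at 0 a single positive cell is enough to be flagged, so the count is not set against that rate. Ndn was 2.2 TPM in KO MK 1A and 0.1 TPM or less in the other KO MK cells. Gnas was 21.7 TPM in KO MK 2, against 44.1 TPM or more in the others. Plagl1 was 1.0 TPM in WT MK 1B and 0.1 TPM or less in the other WT MK cells.

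Among the 13 libraries that the authors left out, WT MK B1-1b had 5.9 TPM of Dlk1 and 11.7 TPM of Meg3, both above any value in the 33 libraries of the table without outliers. Dlk1 reached 1 TPM in 5 of these 13 libraries and Meg3 in 6, against 0 and 1 of the 33. The 6 libraries concerned had housekeeping scores of 1.24 to 6.84, with 71.5 to 85.4% of the TPM on mitochondrial genes in 4 of them and 3301 and 2666 genes above 0 in the other two, KO NMK 5A and WT MK B1-1b. The part of library quality in these values was not tested.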

How the results depend on the processing

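Every alternative kept the sign of the called Ndn differences. For KO NMK minus WT NMK no alternative could change the sign, as every KO NMK value was 0. For KO MK minus WT MK the Ndn difference was -0.81 in the full table, -3.83 with a pseudocount of 0.1, -0.39 with a pseudocount of 10 and -3.15 for prefix B1, and the number of members called was 0 in the full table, with a pseudocount of 10 and with a minimum of 10 TPM. For KO NMK minus WT NMK it was -7.18 and -2.33 with pseudocounts of 0.1 and 10. For WT MK minus WT NMK 0 members were called with a pseudocount of 0.1, without mitochondrial and ribosomal protein genes, and with 5 WT MK libraries averaged. The share of cells with Ndn was 0% in KO MK at 5 TPM, and 40.0% above 0, and in WT MK 33.3% at 5 TPM, 100% above 0 and 45.5% in the full table.

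With each library left out in turn, 1 to 2 members were called for KO NMK minus WT NMK (2 without KO NMK 5B), 0 to 1 for WT MK minus WT NMK, 1 for KO MK minus WT MK and 0 for KO MK minus KO NMK. The Ndn differences ran from -5.22 to -4.24, -3.16 to -2.18 and -2.03 to -1.48 in the first 3 of these. The causes were not tested. Median-ratio rescaling moved the median of all genes to 0.19, 0.40, 0.62 and 0.27 in the order KO MK minus WT MK, KO NMK minus WT NMK, WT MK minus WT NMK and KO MK minus KO NMK, and gave a Gnas difference of 1.23 for KO NMK minus WT NMK. Of the recomputed values that answer a comparison 194 held and 25 moved, and of the others 340 held and 8 moved, this Gnas value among them. TPM keeps no depth, so a value of 0 cannot be told from a transcript missed at capture. No paired analysis was possible because each group is 1 sample without a test and the labels do not say that replicate numbers pair cells.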
